A study of Drosophila melanogaster with 6 samples.

Results

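The odorant receptors (Or genes) and gustatory receptors (Gr genes) of Drosophila melanogaster were examined in whole males that had or had not courted. Members were the probe sets whose annotation named exactly 1 gene with a current Or or Gr symbol, together with Orco. The rule found 82 of the 13966 non-control probe sets on the array, which stood for 81 genes. Of these, 54 probe sets belonged to the Or family (53 genes, Or46a having 2 probe sets) and 28 to the Gr family (28 genes). The RefSeq gene table holds 121 Or and Gr genes, so 40 had no probe set of their own here. Another 2 probe sets, annotated to Gr64b with Gr64c and to Gr64d with Gr64e, were not used because neither can be assigned to a single gene.

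All males were virgin Canton-S flies, a wild-type strain, 4 days old. The exposed group spent 5 min with a virgin female and courted without mating, and the unexposed group was mock-exposed with no female. Each sample was RNA from the whole bodies of about 12 pooled males, and each group had 3 samples, each on 1 Affymetrix array. The methods describe parallel handling of both groups but tie no replicate number to a pair. Arrays with the same replicate number were taken here as a pair, an assumption that the data of replicates 2 and 3 did not favour. Labelling and hybridization took place at 2 facilities, and the sources used here do not say which array was made where.

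An odorant receptor is made by a small group of olfactory neurons in the antenna or the maxillary palp, and it forms an ion channel with Orco, the co-receptor that most Or proteins share. Gustatory receptors serve taste neurons of the mouthparts, legs, wing margin and pharynx, with separate sets for sugars and for bitter compounds, and a pair of them senses carbon dioxide in the antenna. Several members of both families are known from courtship, where the male smells and tastes the female before and while he courts. Receptor transcripts therefore come from very few cells of a whole male, and in such bulk samples fewer cells of a type and less RNA per cell cannot be told apart.

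The array signal of a probe set is a brightness with no unit, and the table holds no detection call. The level of a signal that carries no fly transcript was therefore read from 23 foreign control probe sets, of which 15 were bacterial, 4 from yeast and 4 from mouse, and none was among the spiked hybridization controls. The bacterial genes can be added to RNA as labelling controls, and whether that was done here is not given in the sources used here. Their median was 80.1, 31.3 and 25.3 on exposed arrays 1, 2 and 3, and 81.0, 22.9 and 27.2 on unexposed arrays 1, 2 and 3. The median signal of the 82 receptors on the same arrays was 80.6, 32.8 and 30.8 in exposed males and 95.1, 30.7 and 31.7 in unexposed males. The receptor median was above the foreign median on all 6 arrays, by little on exposed arrays 1 and 2 and by more on the others. Over all 13966 probe sets the median signal lay between 107 and 133, above both.

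**Figure D1:**
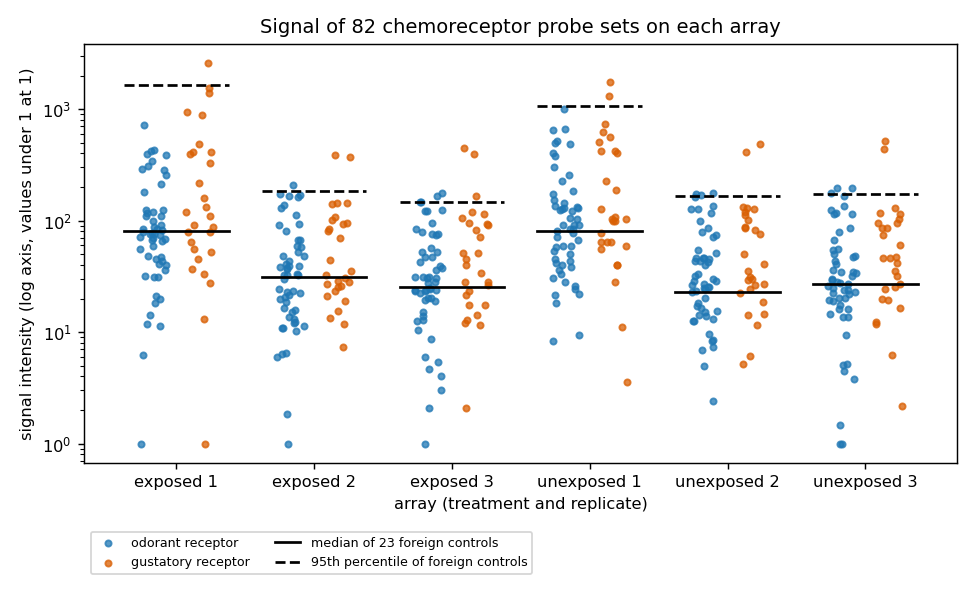
Signal intensity (log axis, values under 1 drawn at 1) of the 82 receptor probe sets on each of the 6 arrays, Or in blue and Gr in orange, with the median (solid line) and the 95th percentile (dashed line) of the 23 foreign controls of that array. Receptor signals spread around the foreign median, and receptors and both lines sat higher on the replicate 1 arrays.

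The count of receptors above this background depended strongly on where the line was drawn. By the main line, a signal over the 95th percentile of the foreign controls on all 6 arrays, 1 of 82 receptors (1.22%) stood above background, and it was Gr59b, against 660 of all 13966 probe sets (4.73%). That line was high, at 1643, 185 and 146 on the exposed arrays and 1070, 165 and 172 on the unexposed arrays, because a few mouse and bacterial controls were bright. Over the upper quartile of the controls, 22 receptors (26.8%) stood above on all 6 arrays, against 45.9% of all probe sets. Over their median it was 28 receptors (34.1%), against 56.5% of all probe sets. At each of these steps a smaller share of receptors than of all probe sets cleared the line. No receptor exceeded the brightest foreign control on any array.

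The families differed in how many members cleared the line. Over the foreign median on all 6 arrays stood 17 of 54 Or probe sets (31.5%) and 11 of 28 Gr probe sets (39.3%). At the upper quartile the counts were 11 Or probe sets (20.4%) and the same 11 Gr probe sets (39.3%). The ionotropic receptors, another chemoreceptor family, had 25 of 47 probe sets (53.2%) over the median, and the odorant-binding proteins, which are secreted around olfactory and taste neurons, had 19 of 35 (54.3%). At the 95th percentile 5 odorant-binding proteins (14.3%) and 1 ionotropic receptor (2.13%) remained. These shares are given as a description, and no test was made between families.

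**Figure D2:**
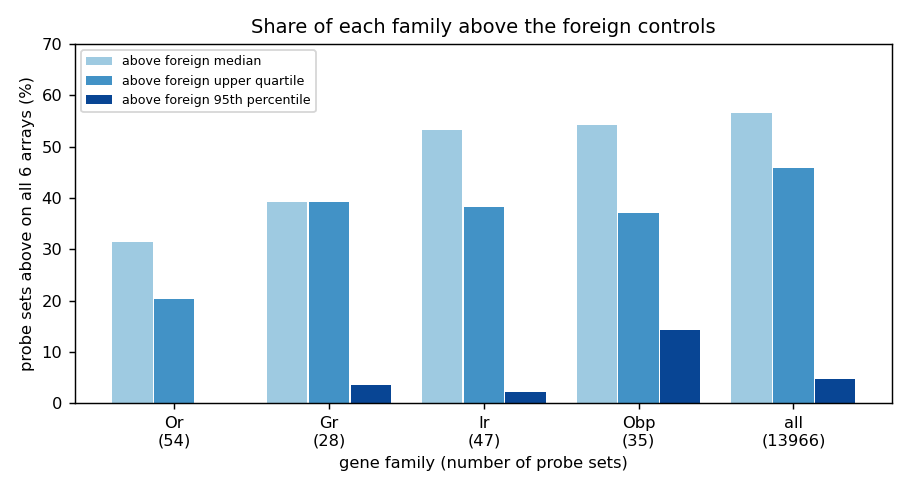
Share of probe sets, in percent, whose signal exceeded the median, the upper quartile or the 95th percentile of the foreign controls on all 6 arrays, for Or, Gr, ionotropic receptors, odorant-binding proteins and all probe sets. At the median step the Or share was 31.5% and the Gr share 39.3%, against 56.5% of all probe sets.

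At the other end, 20 of 82 receptors were above the foreign median on no array, against 741 of all 13966 probe sets. Among these receptors were Or67d, Or88a, Or22a, Gr63a and Gr64f. The remaining 34 receptors cleared it on some arrays only. By signal alone, 41 of the 82 stayed under 100 on all 6 arrays, Orco among them, against 3538 of all 13966 probe sets. Signals of 100 on all 6 arrays were reached by 11 receptors, against 5427 of all probe sets. The 11 were Gr2a, Gr8a, Gr59b and Gr93a of the gustatory family and Or7a, Or22b, Or22c, Or42a, Or59b, Or67a and Or69a of the odorant family.

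Signals were not even across replicates, and this touched nearly every receptor. Both replicate 1 arrays were brighter than all 4 other arrays for 74 of 82 receptors (90.2%), while the share over all probe sets was 36.4%. The pattern held for 49 of 54 Or and 25 of 28 Gr probe sets. The receptors' median ratio of replicate 1 to the others, taken between geometric means, was 3.05-fold, similar in exposed males (3.08-fold) and unexposed males (3.16-fold). It ran from 0.0905-fold to 11.8-fold, the highest being Gr47a, and 26 receptors exceeded 4-fold. The few that were dimmer on both replicate 1 arrays were Gr10b, Gr89a and Or83c. Of the foreign controls, 21 of 23 were brighter on both replicate 1 arrays too, with a median ratio of 3.36-fold. The receptors moved together with probe sets for which the fly has no transcript.

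The share was also higher than that of all probe sets under a common upper cut, where the receptors were the dimmer. Among all 5875 probe sets with a median under 100 on the replicate 2 and 3 arrays, 51.1% were brighter on both replicate 1 arrays, against 60 of 68 receptors (88.2%) under this cut. The 2 sets were not matched in brightness. On exposed arrays 2 and 3 and unexposed arrays 2 and 3 the median signal of these receptors was 27.6, 25.7, 26.6 and 26.5. That of all probe sets under the cut was 47.8, 48.5, 50.1 and 47.7. The ionotropic receptors behaved like the receptors (41 of 47, 87.2%). Odorant-binding proteins did not, with 11 of 35 brighter (31.4%), 18 dimmer and a median ratio of 0.677-fold. Over all probe sets the median ratio was 0.856-fold. The part of the background in the replicate 1 signals of the receptors was not tested.

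**Figure D3:**
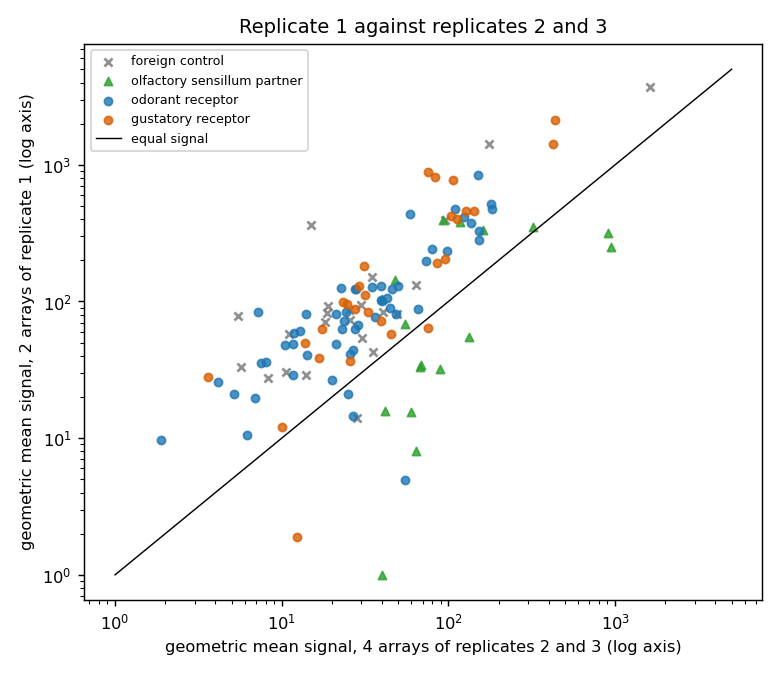
Geometric mean signal of the 2 replicate 1 arrays (vertical, log axis) against that of the 4 arrays of replicates 2 and 3 (horizontal, log axis), each point a probe set of the odorant receptors, gustatory receptors, foreign controls or olfactory sensillum partners, with a line of equal signal. Receptors (median ratio 3.05-fold) and foreign controls (3.36-fold) lay mostly above the line, and olfactory partners (0.488-fold) mostly below it.

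Genes listed as olfactory sensillum partners, which include transcription factors besides proteins of the sensilla, were split between both directions. Of 17 probe sets for olfactory sensillum partners, standing for 15 of 18 listed genes, 8 were above the foreign median on all 6 arrays. On both replicate 1 arrays 10 of the 17 were dimmer and 6 were brighter than on all others, with a median ratio of 0.488-fold, and over all 13966 probe sets 6299 were dimmer. The 6 brighter were ato, both probe sets of pdm3, 1 of the 2 of Snmp2, ATP8B and Amt, of which ato read 329, 116 and 113 in exposed males and 443, 128 and 115 in unexposed males. Obp83b, an odorant-binding protein of the antenna, read 294, 1053 and 824 in exposed males and 216, 966 and 958 in unexposed males. The signal of lush, the binding protein that pheromone-sensing neurons need, was 43.8, 99.0 and 82.4 in exposed males and 23.3, 93.0 and 84.0 in unexposed males. Snmp1, the membrane protein of pheromone neurons, read 8.62, 48.2 and 70.7 in exposed males and 7.57, 71.1 and 70.5 in unexposed males. Obp83b, lush and Snmp1 were lowest on the replicate 1 arrays, where most receptors were highest. The olfactory transcription factor acj6 was listed at 0 on both replicate 1 arrays.

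Summed over the 17 probe sets, the olfactory partners gave 2453 to 3289 on the exposed arrays and 2694 to 3542 on the unexposed arrays. The taste cell partners, with 13 of 21 listed genes measured, summed to 954 to 3829 on the exposed arrays and 1115 to 2743 on the unexposed arrays. Of these, 3 were above the foreign median on all 6 arrays, among them the water-sensing channel ppk28 and the pheromone channel subunit ppk29. ppk29 read 848, 95.3 and 93.8 in exposed males and 765, 79.6 and 76.0 in unexposed males, which is the pattern of most receptors across replicates. On both replicate 1 arrays 7 of the 13 taste partner probe sets were brighter and 1 was dimmer than on all others, with a median ratio of 1.66-fold. ppk19, ppk23, ppk25, CheB42b and Ir52d were neither. Neuron markers, with 9 of 10 listed genes measured, summed to 997 to 1220 on the exposed and 1043 to 1392 on the unexposed arrays. Of the 14 neuron marker probe sets 6 were brighter and 6 dimmer on both replicate 1 arrays, with a median ratio of 1.12-fold. The sodium channel gene para, among the brighter, read 188, 65.6 and 60.3 in exposed males and 188, 71.7 and 68.5 in unexposed males. The pan-neuronal gene elav, among the dimmer, read 0, 37.8 and 31.9 in exposed males and 6.84, 32.4 and 35.8 in unexposed males. The summed levels overlapped between the groups in all of these lists. Within pairs, the exposed sum was the lower in all 3 for the olfactory partners (2453 against 2694, 3289 against 3542 and 2797 against 3501) and for the neuron markers (1220 against 1392, 1084 against 1156 and 997 against 1043). For the taste cell partners the exposed sum was higher in pairs 1 and 2 (3829 against 2743 and 1117 against 1115). It was lower in pair 3 (954 against 1115). Over all 13966 probe sets the exposed sum was also lower in pairs 1 and 2 (4.99e+06 against 5.59e+06 and 5.22e+06 against 5.44e+06). In pair 3 that sum was higher in exposed males (5.38e+06 against 5.26e+06). Bright probe sets weigh most in such sums, as ppk28 with 1810 on exposed array 1 and a10 with 696 against 1071 in pair 3. Of the 17 olfactory partner probe sets 6 (35.3%) were lower in every pair and 0 higher, and of the 14 for neuron markers 3 (21.4%) were lower and 0 higher. Among the 13 for taste cell partners 1 was lower and 2 were higher. Over all probe sets the shares were 17.9% lower and 6.56% higher. The part of these levels in the receptor ratios was not tested.

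Orco is the member with the widest known expression, in most olfactory neurons. Its signal was 92.0, 52.7 and 42.5 in exposed males and 70.8, 51.1 and 48.3 in unexposed males. The exposed-to-unexposed log2 ratio was 0.38, 0.05 and -0.18 in pairs 1, 2 and 3. It was above the foreign median on every array except unexposed array 1. The pairs went both ways and the groups overlapped, and the gene was too dim to enter the test.

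Gr59b, the only receptor over the 95th percentile line on all arrays, read 2592, 370 and 398 in exposed males and 1749, 482 and 515 in unexposed males. The exposed signal exceeded the unexposed one in pair 1 (log2 ratio 0.57) and was below it in pairs 2 and 3 (-0.38 and -0.37). The fit over the 3 pairs gave -0.06 (SE 0.24, 95% interval -0.69 to 0.57, limma adjusted p = 0.965). Its neighbour in this ranking, chosen after its values were seen, was Gr93a, which acts with Gr66a in caffeine taste. Gr93a read 1550, 385 and 446 in exposed males and 1320, 416 and 443 in unexposed males, and missed the line on exposed array 1 alone. Without replicate 1 both Gr59b and Gr93a cleared it.

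**Figure D4:**
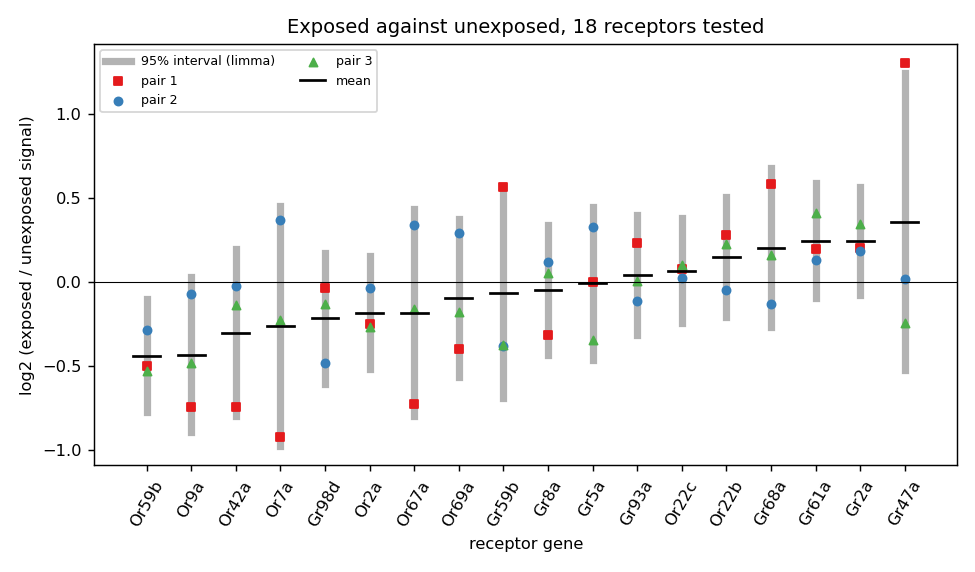
Log2 ratio of exposed to unexposed signal in each of the 3 pairs for the 18 receptor probe sets that were bright enough to test, ordered by the fitted ratio (black bar), with the 95% interval of the limma fit (grey). Or59b had the only interval that excluded 0, and the points of pair 1 often lay away from those of pairs 2 and 3.

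A difference in receptor signal between the exposed males that courted and the unexposed males was tested on probe sets that reached a signal of 100 on 3 or more of the 6 arrays. This filter passed 18 of 82 receptors (22.0%), 9 of each family, against 59.1% of all probe sets. It is not a detection call, and some foreign controls passed it too. Among them was the mouse control MurIL2, at 318, 86.5 and 76.4 on the exposed and 487, 126 and 99.8 on the unexposed arrays. All 18 receptors stood over the upper quartile of the foreign controls on all 6 arrays, but 10 were over their 95th percentile on no array. Of the 18, Gr47a, Gr61a, Gr98d and Or9a passed only through the bright replicate 1 arrays. The tested receptors were uneven along the genome, with 6 of 10 on the X and 2 to 4 of 13 to 23 on each of the other arms, while 55.2% to 61.7% of all probe sets passed on every arm. By coordinates of the RefSeq table, 6 of the 18 overlap another gene: Gr2a with futsch, Gr5a with the antisense gene asRNA:CR44958, Gr8a with CG12121, Gr47a with SLO2, Gr68a with loaf and Or59b with CG43795. Of the 64 receptors not tested, 20 overlap another gene. The table gives no strand, so whether a probe set could read the overlapping gene was not tested.

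No receptor passed the test for a difference between exposed and unexposed males. At a limma adjusted p under 0.05, 0 of 18 receptors were called, and over all 8251 probe sets tested the share called was 0%. The lowest adjusted p of a receptor was 0.905. At the study's own threshold, an unadjusted p under 0.001, no receptor was called, and 2 of all probe sets tested were, both lower in exposed males. At an unadjusted p under 0.05, 0 receptors were higher and 1 was lower, where the shares over all probe sets tested were 0.376% higher and 2.12% lower. A second method, the Bayesian Cyber-T test that the study used, called 0 receptors after adjustment and 1 at an unadjusted p under 0.05. Over all 8251 probe sets tested it called 1 after adjustment, and 37 higher and 281 lower at an unadjusted p under 0.05. At an unadjusted p under 0.001 Cyber-T called 0 receptors and 21 of all probe sets, each lower in exposed males. The study ran it on several summaries of the arrays and required its threshold in more than 1 of them.

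The intervals show how far the data bound these ratios of signal, in which the part of the background was not tested. The 95% intervals of the 18 receptors had a half-width of 0.31 to 0.89 on the log2 scale, with a median of 0.42. For 17 of 18 the interval lay within 1 log2 unit of 0, the exception being Gr47a. For 17 of 18 it included 0. The median log2 ratio of the 18 was -0.06, with 7 ratios above 0 and 11 below, and the median over all probe sets tested was -0.09. By pair the receptors' medians were -0.02, -0.0028 and -0.15, and those of every probe set in the test were -0.21, -0.08 and 0.05.

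The receptor with the smallest p was Or59b, an antennal receptor for small acetate esters. It read 713, 139 and 122 in exposed males and 1008, 169 and 177 in unexposed males. The exposed pool was lower in all 3 pairs, with log2 ratios of -0.50, -0.29 and -0.53. The fitted ratio was -0.44 (SE 0.13, 95% interval -0.78 to -0.10), with an unadjusted p of 0.0211 in limma and an adjusted p of 0.905. The result did not pass the correction, and the group ranges overlapped with replicate 1 far brighter than the others in both groups.

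Next by p among the receptors with lower fitted levels in exposed males were Or9a, Or42a and Gr98d, and none passed. Or9a, an antennal receptor, read 182, 94.1 and 83.4 in exposed and 305, 98.7 and 117 in unexposed males, with a fitted log2 ratio of -0.43 (SE 0.18). Or42a, an ester receptor of the maxillary palp and the larva, read 398, 172 and 178 in exposed and 668, 175 and 196 in unexposed males, with a fitted ratio of -0.30 (SE 0.19). For Or42a nearly all of the difference lay in pair 1, at -0.75, against -0.02 and -0.14 in the other pairs. Gr98d, a gustatory receptor, read 415, 92.7 and 94.5 in exposed and 425, 130 and 103 in unexposed males, with a fitted ratio of -0.22 (SE 0.15). The adjusted p of each was 0.905 in limma.

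In the other direction the smallest p values belonged to Gr2a, Gr61a, Gr68a and Or22b, again with a limma adjusted p of 0.905 each. Gr2a, known from pharyngeal taste neurons, read 489, 145 and 167 in exposed and 424, 128 and 131 in unexposed males, a fitted log2 ratio of 0.25 (SE 0.12). Gr61a, a sugar receptor that responds to glucose, read 217, 95.3 and 114 in exposed and 189, 87.1 and 85.5 in unexposed males, also 0.25 (SE 0.13). Both were higher in the exposed pool of every pair, by 0.21, 0.19 and 0.35 for Gr2a and by 0.20, 0.13 and 0.41 for Gr61a. Or22b, which shares an antennal neuron with the ester receptor Or22a, read 309, 170 and 147 in exposed and 254, 176 and 125 in unexposed males, a fitted ratio of 0.15 (SE 0.14). Intervals of these receptors all reached below 0.

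Among receptors for fly odours and pheromones, 5 of 6 listed genes had a probe set, 2 were above the foreign median on all 6 arrays and 1 was tested. Or47b, which senses fly-derived fatty acid esters and promotes male courtship, read 259, 80.0 and 79.6 in exposed males and 228, 74.99 and 86.7 in unexposed males, with pair ratios of 0.18, 0.09 and -0.12. Or69a, an antennal receptor with ligands among food odours and a female volatile, read 285, 165 and 148 in exposed males and 376, 134 and 168 in unexposed males. Its fitted log2 ratio was -0.10 (SE 0.18, limma adjusted p = 0.934), with pair ratios of -0.40, 0.29 and -0.18. Neither gene kept one direction across the pairs.

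The others of this list were dimmer. Or67d, the receptor for the male pheromone cis-vaccenyl acetate, read 45.3, 1.84 and 10.5 in exposed males and 28.4, 13.2 and 16.3 in unexposed males, below the foreign median on every array. Or88a, which responds to fly odours, read 70.4, 20.6 and 12.7 in exposed males and 53.4, 20.4 and 5.09 in unexposed males, also below it throughout. Or83c, the farnesol receptor, was listed at 0 on exposed array 1, with 67.0 and 56.4 on exposed arrays 2 and 3 and 24.4, 46.5 and 50.6 on the unexposed arrays. A ratio between such signals compares background with background, and none is read here for Or67d or Or88a.

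The courtship receptors of the gustatory family had 3 of 4 listed genes on the array, of which 1 was tested. Gr68a, known from taste hairs of the male foreleg, read 944, 108 and 106 in exposed males and 629, 118 and 95.004 in unexposed males. Its pair ratios were 0.59, -0.13 and 0.16, and the fit gave 0.21 (SE 0.18). Gr32a, a bitter receptor with a part in male courtship choice, read 55.6, 44.5 and 45.0 in exposed males and 59.8, 49.9 and 41.4 in unexposed males. Gr33a, a co-receptor of bitter neurons that also restrains courtship between males, read 120, 27.2 and 34.2 in exposed males and 103, 22.6 and 46.2 in unexposed males. Across the pairs none of the 3 kept one direction, with ratios of -0.11, -0.16 and 0.12 for Gr32a and 0.22, 0.27 and -0.43 for Gr33a.

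Of the bitter receptors, 9 of 11 listed genes were measured, 4 were above the foreign median on all 6 arrays and 3 were tested. Gr66a, the receptor that marks bitter neurons, read 889, 84.1 and 93.3 in exposed males and 741, 81.7 and 75.1 in unexposed males. It reached 100 on the replicate 1 arrays alone, so it was not tested, and its pair ratios were 0.26, 0.04 and 0.31. Gr8a, which is needed to avoid the plant amino acid canavanine, read 411, 145 and 120 in exposed and 511, 134 and 116 in unexposed males, with a fitted log2 ratio of -0.05 (SE 0.15). Gr47a, singled out after its values were seen, read 1394, 102 and 51.3 in exposed males and 564, 100.6 and 60.7 in unexposed males. Its fitted ratio of 0.36 (SE 0.34, limma adjusted p = 0.905) rested on pair 1, at 1.30, against 0.02 and -0.24, and without replicate 1 it was -0.11.

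Of the 9 listed sugar receptors, 4 had a probe set of their own, and 2 were above the foreign median on all 6 arrays and tested, namely Gr5a and Gr61a. Gr5a, the trehalose receptor, read 400, 140 and 90.9 in exposed males and 400, 112 and 116 in unexposed males, with pair ratios of 0.00, 0.33 and -0.35. The fit gave -0.01 (SE 0.17, limma adjusted p = 0.995). Gr43a, a fructose receptor of taste neurons and brain, read 132, 30.6 and 28.2 in exposed males and 128, 26.3 and 31.5 in unexposed males. Gr64f, the broadly used sugar co-receptor, read 45.1, 11.9 and 17.5 in exposed males and 55.1, 14.6 and 11.9 in unexposed males, below the foreign median on every array. The probe set shared by its cluster neighbours Gr64d and Gr64e, which was not a member, read from 68.7 to 195 over the 6 arrays.

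Both carbon dioxide receptors were measured and neither was above the foreign median on all arrays. Gr21a read 79.3, 28.0 and 14.2 in exposed males and 98.8, 40.6 and 35.5 in unexposed males. Gr63a, its partner, read 52.0, 21.0 and 11.6 in exposed males and 77.3, 18.6 and 20.0 in unexposed males. Gr63a was below the foreign median on every array, so no ratio is read for it. The exposed pool was lower in every pair for Gr21a (-0.32, -0.54 and -1.33). Gr21a lay under the foreign median on all 3 exposed arrays, by little on array 1 (79.3 against 80.1), and over it on all 3 unexposed arrays. In replicate 2 the foreign median itself was higher on the exposed array (31.3) than on the unexposed one (22.9). The group ranges of Gr21a overlapped, it was too dim to test, and such splits were not counted over all probe sets.

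By the organ in which the odorant receptors are used, 31 of 37 listed adult antennal genes had a probe set, 13 were above the foreign median on all 6 arrays and 7 were tested. Of 8 probe sets for the 7 maxillary palp genes, 1 was above it, Or42a. All 12 listed larval genes were measured, and 2 were above it. Or22c, a larval receptor, was among these and read 423, 129 and 124 in exposed males and 402, 127 and 115 in unexposed males, with a fitted log2 ratio of 0.07 (SE 0.12). The antennal receptors Or7a and Or67a showed how much pair 1 carried. Or7a, a receptor for leaf aldehydes, read 344, 210 and 167 in exposed and 653, 163 and 196 in unexposed males, with pair ratios of -0.93, 0.37 and -0.23. Or67a read 291, 162 and 122 in exposed and 482, 128 and 137 in unexposed males, with pair ratios of -0.73, 0.34 and -0.16. Without replicate 1 their fitted ratios changed sign, from -0.26 to 0.07 for Or7a and from -0.18 to 0.09 for Or67a.

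Directions shared by all 3 pairs were counted over all 82 receptors, with dim ones included. The exposed pool was higher in every pair for 11 receptors (13.4%), where the share over all probe sets was 6.56%, and lower in every pair for 16 (19.5%), where the share over all probe sets was 17.9%. Only 3 of the 11 and 5 of the 16 were bright enough to test. All 3 exposed signals lay above all 3 unexposed signals for 2 receptors, against 0.351% of all probe sets, and below them for 1, against 1.93%. These 3 were named for that count, after their values were seen. Gr36c read 13.1, 15.6 and 17.4 in exposed and 11.1, 6.06 and 6.20 in unexposed males. The dimmer of the 2 Or46a probe sets read 11.9, 13.1 and 13.8 in exposed and 9.35, 8.28 and 0 in unexposed males. Or43a, an antennal receptor, read 6.25, 22.9 and 19.0 in exposed and 33.3, 27.2 and 43.0 in unexposed males. None of these signals reached 50, Gr36c and that Or46a probe set were above the foreign median on no array, and Or43a was above it on 2.

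The 2 probe sets of Or46a, a maxillary palp gene, are not compared in direction, since the dimmer was above the foreign median on no array. The brighter read 74.1, 57.6 and 23.7 in exposed and 136, 45.9 and 40.4 in unexposed males, with pair ratios of -0.88, 0.33 and -0.77. The dimmer was listed at 0 on unexposed array 3, and no ratio is read for it. Neither entered the test.

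Of the 12 olfactory, taste and neuron partner probe sets that could be tested, none passed, with limma adjusted p from 0.905 to 0.96. The partner with the smallest p was pdm3, a transcription factor of olfactory neurons, at a fitted log2 ratio of -0.51 (SE 0.16). Its pair ratios were -0.83, -0.43 and -0.28. The other pdm3 probe set was not tested and did not keep one direction, with pair ratios of -0.34, 0.07 and -0.11.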

How the data were processed

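RNA from whole males was hybridized to 6 Affymetrix arrays, 3 per group. For each array the authors deposited a table with a linear intensity (signal) for every probe set. GCOS 1.2 is named in the submitters' processing notes and dChip besides GCOS in the methods, but which of these gave the deposited intensity was not given in the sources used here. How this choice affects the signals was not tested. Array data carry no read depth, and the number of arrays limits the precision. Probe sets were named from the platform annotation, with symbols updated through the Entrez gene number to the RefSeq Release 6 table. No sequence of the receptors was used. Members, gene lists and the rule for named receptors were chosen with earlier results of these data known.

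Signals under 1 were set to 1 and log2 values were fitted with lmFit and eBayes (limma 3.58.1, R 4.3.3) with the replicate number as a block, on the 8251 probe sets that reached a signal of 100 on 3 or more arrays. P-values were adjusted by Benjamini-Hochberg over all of them. The code was tested on simulated data. Probe sets of the same gene were kept apart. Background was read from 23 foreign control probe sets of each array, with the 95th percentile as the main line. The upper quartile, and the 95th percentile without the 2 brightest controls, were added after seeing the data. The methods describe pools collected in parallel and a paired test, and that same-numbered arrays are the pairs is an assumption. In these files the deviations of same-numbered arrays correlated at 0.844, 0.76 and 0.78 over the probe sets tested, but exposed 3 with unexposed 2 (0.814) and exposed 2 with unexposed 3 (0.806) did so as well, and between replicates 2 and 3 alone the correlation was -0.332. Pools are separate sets of males. Alternatives were quantile normalization, median centring, a floor of 50, an offset of 32, no filter, no block, the Cyber-T test (window of 101 probe sets, 10 prior observations), other background lines and leaving out each replicate.

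The named receptors were Orco, those over the main background line, the 4 tested receptors in each direction with the smallest p, and receptors known from courtship, fly odours, sugar and carbon dioxide. Others are named after their values were seen.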

Additional observations from a re-analysis of the deposited data

How the results depend on the processing

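No receptor was called at an adjusted p under 0.05 in limma under any alternative fit, the fit with no replicate block included (0 of 18 receptors). At an unadjusted p under 0.05 the count of receptors ranged from 0 to 3 in the limma and Cyber-T fits that kept a signal filter. It was 0 of 18 with no block, where all 8251 probe sets gave 0 higher and 10 lower. Cyber-T gave 1 of 18, with 37 higher and 281 lower over all. Quantile normalization gave 3 of 18. With a signal of 100 on all 6 arrays it was 1 of 11, where all 5427 probe sets gave 25 higher and 153 lower. With no filter the limma fit gave 7 of 82 receptors, 2 higher and 5 lower. Over all 13966 probe sets that fit gave 76 higher and 297 lower. Scaling moved the median log2 ratio of the tested receptors from -0.06 to 0.034 after quantile normalization and 0.051 after median centring, as it moved that of all probe sets tested from -0.09 to 0.005 and 0.02. The split over all probe sets at an unadjusted p under 0.05 went from 31 higher and 175 lower to 146 and 120 with quantile normalization and 127 and 102 with centring.

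The count above background on all 6 arrays, 1 by the main line, was 0 against the highest control, 0 against yeast and mouse controls alone, 4 where at least 3 arrays sufficed, 11 at a signal of at least 100, 13 without the 2 brightest controls, 22 at the upper quartile and 28 at the median. Leaving out a replicate gave 1 to 2.

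Fitted log2 ratios of 8 tested receptors changed sign under some alternative. With quantile normalization Gr5a was 0.088, Gr8a 0.048 and Or69a 0.020, and with centring Gr59b was 0.044, Gr5a 0.099, Gr8a 0.059 and Or69a 0.011. Leaving out a replicate, the ranges were -0.38 to 0.097 for Gr59b, -0.17 to 0.16 for Gr5a, -0.58 to 0.070 for Or7a, -0.13 to 0.085 for Gr8a, -0.11 to 0.66 for Gr47a, -0.44 to 0.088 for Or67a, -0.29 to 0.056 for Or69a and -0.052 to 0.12 for Gr93a. Among the receptors too dim to test, the mean ratio of Or83c, listed at 0 on 1 array, went from -1.31 to 0.34 without replicate 1. The cause of these shifts was not tested. The dimness of the receptors limits all of these values.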
